A study of Mus musculus with 22 samples.

Results

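The Wnt ligands, receptors and pathway genes described here are 63 of the 23081 genes in the Ribo-Seq tables. They were chosen by gene symbol alone: the Wnt and Fzd families, Dkk1 to Dkk4, Sfrp1 to Sfrp5, Rspo1 to Rspo4, Lgr4 to Lgr6, Dvl1 to Dvl3, Nkd1, Nkd2, Axin1, Axin2, Tcf7 and its relatives, Lef1, Lrp5, Lrp6, Ctnnb1, Apc, Gsk3b, Znrf3, Rnf43 and Wif1. Joined by Ensembl identifier, 61 of them were also in the RNA-Seq files, and Fzd10 and Tcf7l2 had footprint values only.

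The cells were mouse neural stem cells (NSCs) cultured from the cortex of embryos and grown with EGF and bFGF, and the mice were of the 129SvJae strain. KH2 cells carry the m2rtTA activator at Rosa26 and no Musashi cDNA. MSI1 and MSI2 cells carry the same activator and, at Col1A1, a Msi1 or Msi2 cDNA that doxycycline (Dox) switches on; these 3 lines are called tet-inducible. C1 and C4 cells carry floxed alleles of both Msi1 and Msi2, and C4 cells also carry CreER, a Cre recombinase that 4-hydroxytamoxifen (4-OHT) activates, while C1 cells lack it and serve as the control for the drug. RNA-Seq covered KH2, MSI1 and MSI2 with and without Dox (72 h) and C1 and C4 with and without 4-OHT (48 h) at E12.5, and untreated KH2 and both states of MSI1 at E13.5. Ribo-Seq, which counts ribosome-protected mRNA fragments, covered KH2, MSI1, C1 and C4 at E12.5 in both states. A condition was 1 library, except that untreated MSI1 of E13.5 had technical replicates, summed here, and a line was 1 culture. The tests below therefore use lines or stages as repeats, and their p-values cover the spread between these libraries only. The edgeR fits had 1 to 3 residual degrees of freedom, so a gene's spread was largely pooled with that of all genes. In the fit of Msi1 induction the pooling was complete, and a gene's own spread carried no weight.

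Wnt proteins are secreted lipid-modified ligands that bind Frizzled receptors and the co-receptors LRP5 and LRP6. Without a ligand, AXIN, APC and GSK3B hold β-catenin (Ctnnb1) in a destruction complex; with one, Dishevelled proteins disable the complex, β-catenin accumulates and TCF/LEF factors switch on target genes, among them the feedback inhibitors Axin2, Nkd1, Znrf3 and Rnf43. In the embryonic forebrain the pathway is known for patterning the dorsal midline and for its part in the choice between progenitor division and neuron formation.

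RNA-Seq totals ran from 7889966 counts (MSI1 with Dox, E12.5) to 58435172, and Ribo-Seq totals from 657288 (MSI1 with Dox) to 6381242, with 66.7% of the untreated KH2 footprints on Hes7. The induced genes matched their labels: Msi1 rose from 129 to 701 with Dox in MSI1 cells of E12.5, in normalised CPM per kb, and Msi2 from 153 to 824 in MSI2 cells. In MSI1 cells Msi2 fell with Dox, from 206 to 129 at E12.5 and from 198 to 85.4 at E13.5, while KH2 went from 191 to 208. Changes given below for Msi1 induction were thus seen in cells that also had less Msi2 mRNA, whose part was not tested. In the library labelled C4 with 4-OHT, Msi2 was 13.54 against 123.4 without it, while Msi1 was 28.1 against 29.5, so its Msi1 reads did not show the deletion. In C1, Msi1 was at 82.2 without and 70.8 with 4-OHT, so the 2 lines differed in Msi1 before the drug. The exons that Cre removes are not given in the sources used here. Neural stem markers were high in all libraries, with a summed level of 13264 to 18052 over 7 genes, and the endothelial and microglial lists summed to at most 1.06 and 0.353.

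Across the NSC lines the pathway was represented at every step from ligand to transcription factor. The level used here is the TMM-normalised RNA-Seq CPM per kb of the gene's counted exons, which can be set side by side between genes and libraries. By the mean over the 5 untreated lines of E12.5, 38 of the 61 genes (62.3%) had a level of at least 1, against 54.7% of all 22623 genes. β-catenin was the highest, at 969 ± 56.2 (SD, n = 5 lines), well above the next, Gsk3b, at 171 ± 55.4. The leading genes of the other roles were the Dishevelled gene Dvl3 (116 ± 30.9), the receptor Fzd9 (103 ± 45.6), the co-receptor Lrp5 (85.2 ± 39.0), the ligand Wnt5a (78.2 ± 53.9, although Wnt7b was above it in C1 and C4), the factor Tcf7l1 (69.2 ± 9.22), the E3 ligase Znrf3 (18.5 ± 3.20) and the secreted inhibitor Sfrp2 (15.7 ± 6.29). Dvl3, Fzd9, Apc and Nkd1, which follow Gsk3b in that order, did not differ from their neighbours beyond their spread across lines.

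Most ligands and secreted inhibitors had a level under 1. Of 19 ligands, 8 had a mean level of at least 1, and Wnt1, Wnt3a and Wnt10b, canonical ligands, had no read in any of the 14 RNA-Seq libraries. Dkk1, Dkk2 and Dkk4, which block LRP5 and LRP6, stayed at or under 0.180 in every library, and Sfrp1, Sfrp2 and Sfrp4 were the 3 of 9 secreted inhibitors with a mean level of at least 1. All 9 Frizzled receptors in the RNA-Seq files, both co-receptors, all 5 genes of the destruction complex and all 5 cytoplasmic transducers had a mean level of at least 1. In footprints, 11 of the 63 genes had none in any library and 18 had more than 5 in all 8.

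**Figure D1:**
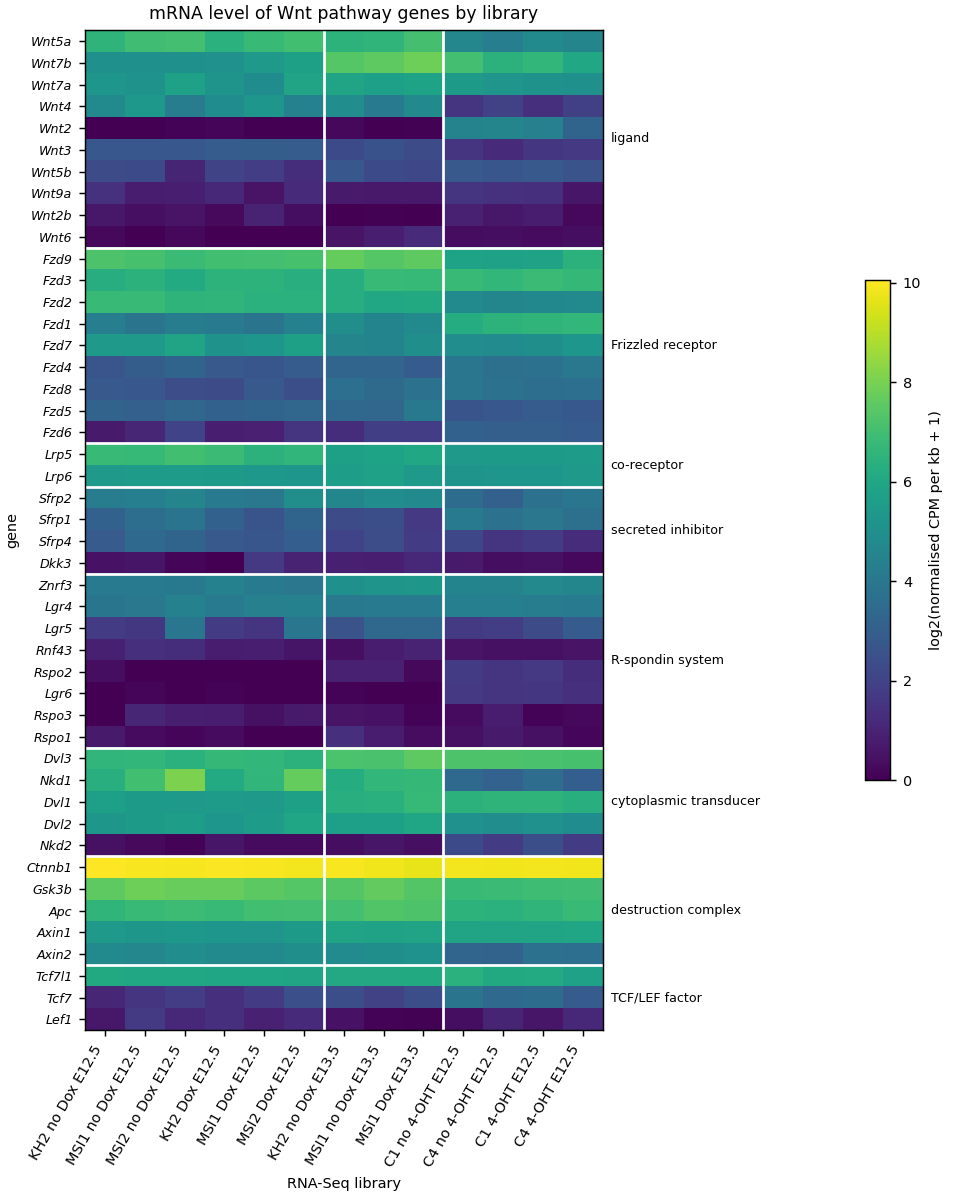
mRNA level of the Wnt pathway genes that reached a level of 1 in at least 1 library (rows, by role) in each of the 13 RNA-Seq conditions (columns), as log2 of the normalised CPM per kb plus 1. Ctnnb1 is the brightest row in every column, and Wnt2, Lgr6 and Nkd2 are clearly brighter in the 4 columns of C1 and C4, where Wnt2 runs from 8.45 to 22.5.

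The floxed and the tet-inducible lines differed in most Wnt pathway genes, as they did in most genes. In untreated cells of E12.5, C1 and C4 were compared with KH2, MSI1 and MSI2. Of 38 Wnt pathway genes tested with edgeR's quasi-likelihood test, 30 were called at an adjusted p under 0.05 (14 higher and 16 lower in the floxed lines), where 66.3% of all 12211 genes tested were called (33% higher and 33.3% lower). Of the 38, 5 passed the filter on low counts (1 CPM in 2 libraries) within 1 set of lines only, Lgr6, Nkd2, Tcf7 and Wnt2 through the floxed lines and Rnf43 through the tet-inducible lines, where they were high. Such genes had to differ, so their levels are given as a description and their adjusted p is not. Over the 33 genes that reached the filter within both sets, 25 were called (10 higher and 15 lower), where 64.6% of all 10939 such genes were called. The floxed and tet-inducible lines were also separate experiments, so genotype, embryo and library set cannot be told apart. Gfap, an astrocyte marker, was at 184 and 473 in the floxed lines against at most 5.88 in the others. Hes5, a Notch target of neural stem cells, was at 25.6 and 21.8 against at least 524. Not all markers followed. The neural stem marker Nes was at 474 in C1 and 469 in C4 against 127 in KH2, 155 in MSI1 and 237 in MSI2. The astrocyte marker Aldh1l1 was at 524 and 443 against 730, 797 and 458. Of 7 neural stem genes tested between line sets, 1 was called higher and 2 lower in the floxed lines. Of 4 astrocyte genes tested, 3 were called higher and 0 lower. The astrocyte list (4 genes in the files) summed to 854 to 1224 in the floxed and 416 to 878 in the tet-inducible libraries of E12.5, and the mesenchyme list (7 genes, 4 to 6 of them under 1 in the floxed and 5 in the tet-inducible libraries) to 33.0 to 47.3 and 10.3 to 12.2. Foxc1 made up most of the mesenchyme sum, at 32.0 to 43.8 in the floxed and 8.32 to 9.91 in the tet-inducible libraries. Col1a1 did not follow it, at 0.656 to 1.97 and 1.29 to 2.21. The part of these markers in the differences was not tested. Across the 4 untreated lines with Ribo-Seq, the same test on footprint counts called 14 of 39 Wnt pathway genes, against 31.7% of all 12097 genes. Over those that reached the filter within both sets the count was 9 of 25 (0 higher and 9 lower in the floxed lines), against 35.6% of 9071 genes (1537 higher and 1688 lower).

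Between stages, untreated KH2 and MSI1 cells of E13.5 were compared with those of E12.5, with line as a block. The test called 19 of 35 Wnt pathway genes (13 higher and 6 lower at E13.5), where 50.8% of all 11893 genes were called (25.6% higher and 25.2% lower), and their median log2 difference was 0.22 against 0.01 for all genes. Without Rnf43 and Tcf7, which reached the filter at 1 stage only, it called 18 of 33, where 49.6% of all 10958 such genes were called. DESeq2 called 16 of the 19 and lost Rnf43, Fzd6 and Sfrp2 (adjusted p = 0.165, 0.0767 and 0.129), and edgeR without the block called 16 and lost Rnf43, Fzd9 and Sfrp2 (edgeR adjusted p = 0.0733, 0.0699 and 0.0642). Stage, embryo and library set cannot be told apart. The comparison shares its E12.5 libraries with the one between lines, and the values of both are given gene by gene.

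**Figure D2:**
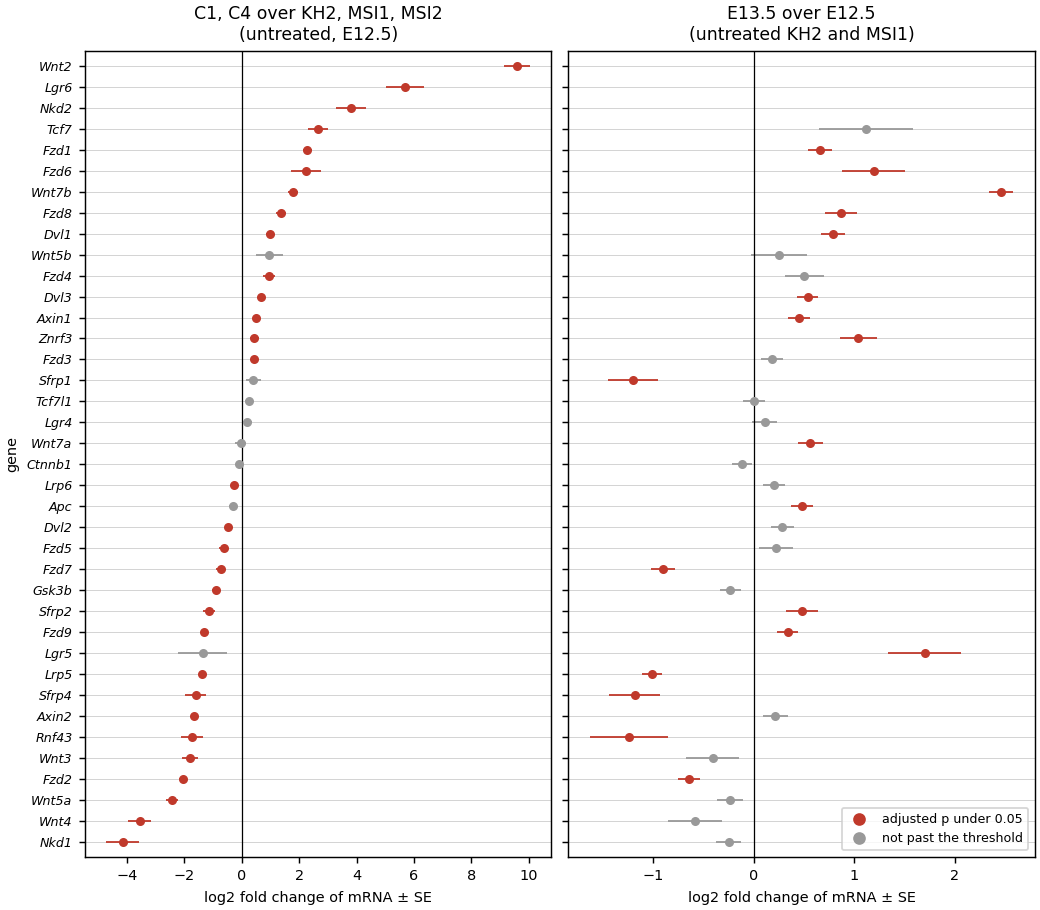
log2 fold change of mRNA ± SE from edgeR for each Wnt pathway gene tested, between floxed and tet-inducible lines (left) and between E13.5 and E12.5 (right), with genes in the same order in both panels. Wnt4 and Nkd1 lie lowest on the left at -3.56 and -4.15, and Wnt7b highest on the right at 2.46; the point of Wnt2 rests on 1 read in the tet-inducible libraries, and Lgr6, Nkd2, Tcf7, Wnt2 and Rnf43 reached the filter within 1 set of lines only.

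Among the ligands, C1 and C4 carried Wnt2 and more Wnt7b, and the tet-inducible lines more Wnt5a, Wnt4 and Wnt3. Wnt2, which signals through β-catenin in lung and heart development, was at 21.7 in C1 and 22.5 in C4, while KH2, MSI1 and MSI2 together gave 1 read. The ratio of floxed to tet-inducible lines was 926, on 2004 reads against 1, and is given as a description only. Its footprints numbered 26 in C1 and 14 in C4 and 0 in KH2 and in MSI1. Wnt2 lies at chr6:17938940-17980585 on the minus strand of mm9, the genome build of the deposited files.

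Wnt5a, at chr14:29317936-29340633 and best known for β-catenin-independent signaling through ROR receptors, was at 92.5 in KH2, 123 in MSI1 and 132 in MSI2, against 24.3 in C1 and 18.7 in C4. Its mRNA was lower in the floxed lines (log2 -2.44 ± 0.21 SE, edgeR adjusted p = 0.000126), and the footprints differed likewise (log2 -2.65 ± 0.37 SE, edgeR adjusted p = 0.000279). Wnt4 was at 26.5 in KH2, 40.2 in MSI1 and 17.7 in MSI2, and at 1.96 in C1 and 2.87 in C4 (log2 -3.56 ± 0.41 SE, edgeR adjusted p = 0.000411). Wnt3 was lower in the floxed lines too, at 1.90 in C1 and 1.33 in C4 against 5.71 in KH2, 5.55 in MSI1 and 5.68 in MSI2 (log2 -1.80 ± 0.27 SE, edgeR adjusted p = 0.00121). Wnt4 and Wnt5a were at 29.8 in KH2 and 16.8 in MSI1, and at 89.7 in KH2 and 94.1 in MSI1, at E13.5, and neither passed the test between stages (log2 -0.59 ± 0.27 SE, edgeR adjusted p = 0.0916 and log2 -0.24 ± 0.13 SE, edgeR adjusted p = 0.135).

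Wnt7b, at chr15:85365869-85412251 on the minus strand, varied most with stage. This canonical ligand of the developing cortex was at 31.8 in KH2, 31.9 in MSI1 and 31.9 in MSI2 at E12.5, within a narrow range, and at 168 in KH2 and 187 in MSI1 at E13.5 (5.50-fold, log2 2.46 ± 0.12 SE, edgeR adjusted p = 1.44e-07). In C1 and C4 of E12.5 it was at 132 and 87.9, above the tet-inducible lines of the same stage (log2 1.78 ± 0.17 SE, edgeR adjusted p = 0.000211) and below those of E13.5: with E13.5 lines as the comparison the difference turned to log2 -0.70 ± 0.20 SE. The footprints of Wnt7b did not differ between line sets past the threshold (log2 0.64 ± 0.50 SE, edgeR adjusted p = 0.364). Its paralogue Wnt7a was steadier, at 37.6 in KH2, 34.2 in MSI1 and 52.5 in MSI2 at E12.5 and 57.9 in KH2 and 49.6 in MSI1 at E13.5, higher at the later stage (log2 0.56 ± 0.12 SE, edgeR adjusted p = 0.00303). Of the other ligands with a mean level of at least 1, Wnt5b passed no test and Wnt9a was under the filter.

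**Figure D3:**
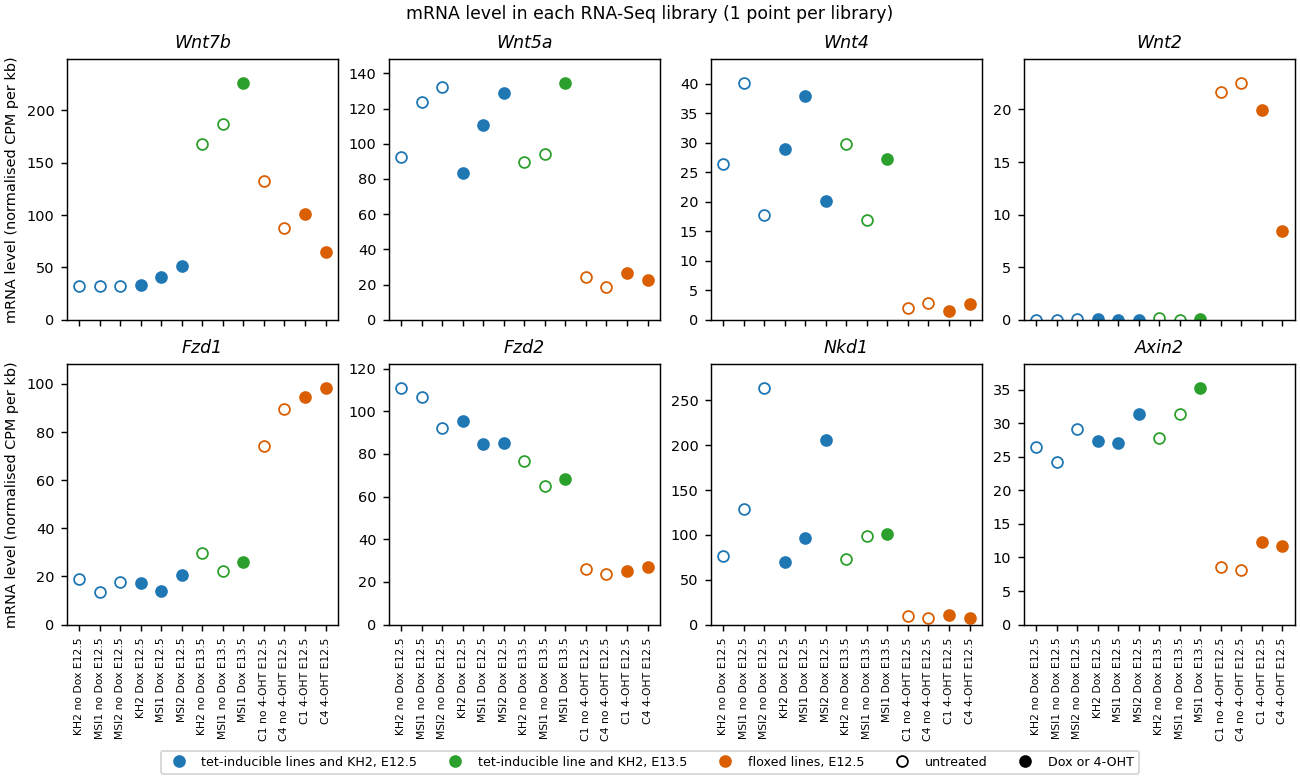
mRNA level (normalised CPM per kb) of 8 Wnt pathway genes in each of the 13 RNA-Seq conditions, 1 point per library, open where untreated and filled with Dox or 4-OHT, each axis starting at 0. Wnt5a, Wnt4, Fzd2, Nkd1 and Axin2 are lower in all 4 libraries of the floxed lines (orange) than in the other 9, Fzd1 and Wnt2 are higher, and Wnt7b is lowest in the 6 tet-inducible libraries of E12.5 (blue), at 31.8 to 50.9.

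All 9 Frizzled receptors tested were called between line sets, 5 higher and 4 lower in the floxed lines, where 66.3% of all 12211 genes were called. The calls of Fzd3, Fzd4, Fzd5 and Fzd7 depended on which lines were kept. Fzd1 was at 74.0 in C1 and 89.4 in C4 against 18.9 in KH2, 13.7 in MSI1 and 17.8 in MSI2 (log2 2.28 ± 0.16 SE, edgeR adjusted p = 6.64e-05). Fzd2 showed the opposite pattern, at 26.1 in C1 and 23.7 in C4 against 111 in KH2, 107 in MSI1 and 91.9 in MSI2 (log2 -2.06 ± 0.12 SE, edgeR adjusted p = 3.67e-05). The footprints of Fzd2 were lower as well (log2 -2.46 ± 0.27 SE, edgeR adjusted p = 6.93e-05), and those of Fzd1 did not pass the threshold (log2 0.89 ± 0.39 SE, edgeR adjusted p = 0.109). Both encode receptors of the same Frizzled subgroup.

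Fzd9, a gene of hippocampal precursors, was the highest receptor in the tet-inducible lines, while in C1 and C4 Fzd3 (109.7 and 99.7) and Fzd1 were above it. It was at 56.4 in C1 and 53.3 in C4 against 149 in KH2, 140.1 in MSI1 and 116 in MSI2 (log2 -1.30 ± 0.13 SE, edgeR adjusted p = 0.000218; footprints log2 -2.03 ± 0.31 SE, edgeR adjusted p = 0.000499). Fzd6 was higher in the floxed lines by log2 2.24 (edgeR adjusted p = 0.00849), Fzd8 by 1.37 (edgeR adjusted p = 0.000609), Fzd4, also the receptor of norrin, by 0.95 (edgeR adjusted p = 0.0076) and Fzd3, needed for axon tracts, by 0.43 (edgeR adjusted p = 0.018). Fzd7 was lower by log2 -0.73 (edgeR adjusted p = 0.00781) and Fzd5 by -0.63 (edgeR adjusted p = 0.0118). The calls of Fzd3, Fzd4, Fzd5 and Fzd7 each depended on which lines were kept: without C1 the adjusted p of Fzd3 was 0.105, of Fzd4 0.0515 and of Fzd5 0.0965, without C4 that of Fzd7 was 0.0584 and of Fzd5 0.0534, and without KH2 that of Fzd3 was 0.0595 (all edgeR).

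Between stages, 6 of the 9 receptors tested were called, where 50.8% of all 11893 genes were called. Fzd7 fell from 41.2 in KH2 and 42.7 in MSI1 at E12.5 to 23.1 in KH2 and 22.2 in MSI1 at E13.5 (log2 -0.91 ± 0.12 SE, edgeR adjusted p = 0.000121. Set against these E13.5 lines in place of E12.5, the difference of the floxed lines was log2 0.32 (edgeR adjusted p = 0.0614). Fzd2 also fell (log2 -0.65 ± 0.11 SE, edgeR adjusted p = 0.000781). Fzd6, Fzd8, Fzd1 and Fzd9 rose, by log2 1.19, 0.87, 0.66 and 0.34 (edgeR adjusted p = 0.00926, 0.00131, 0.00113 and 0.0215). Fzd10, present in the Ribo-Seq tables only, had 3 to 82 footprints a library and did not pass the test between line sets (log2 -0.40 ± 0.56 SE, edgeR adjusted p = 0.628).

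Of the co-receptors, Lrp5 was lower in the floxed lines and at the later stage. Lrp5, at 109 in KH2, 104 in MSI1 and 126 in MSI2 in untreated E12.5 cells, was at 42.8 in C1 and 44.0 in C4 (log2 -1.39 ± 0.11 SE, edgeR adjusted p = 0.0001; footprints log2 -1.93 ± 0.23 SE, edgeR adjusted p = 0.000117) and at 51.1 in KH2 and 55.6 in MSI1 at E13.5 (log2 -1.01 ± 0.10 SE, edgeR adjusted p = 2.75e-05). Lrp6 was within 35.8 to 45.9 in the 5 untreated lines. Its small difference (log2 -0.28 ± 0.10 SE, edgeR adjusted p = 0.039) was lost without C1, C4 or MSI1 (edgeR adjusted p = 0.252, 0.14 and 0.0731). The footprints of Lrp6 were lower in the floxed lines (log2 -1.70 ± 0.27 SE, edgeR adjusted p = 0.000667).

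The R-spondin system, in which R-spondins and their LGR receptors remove the ligases ZNRF3 and RNF43 from the membrane and so raise Wnt signaling, was represented mainly by Lgr4 and Znrf3. Lgr4 was at 14.0 in KH2, 15.3 in MSI1 and 20.6 in MSI2, and at 19.0 in C1 and 19.2 in C4, with no call in either comparison. Lgr6 was at 2.19 in C1 and 1.92 in C4, on 465 reads, and gave 4 reads in the 3 tet-inducible libraries. Lgr5, a target and stem cell marker in gut and hair follicle, stood out in MSI2 cells, at 14.4 without and 14.6 with Dox against 2.33 in KH2 and 2.07 in MSI1. At E13.5 it was at 4.95 in KH2 and 9.52 in MSI1 and higher than in the same lines at E12.5 (log2 1.70 ± 0.36 SE, edgeR adjusted p = 0.00298), by log2 1.08 in KH2 and 2.16 in MSI1. Znrf3 rose with stage, from 16.1 and 16.6 to 32.2 and 35.8 (log2 1.04 ± 0.18 SE, edgeR adjusted p = 0.000886). Between line sets its difference of log2 0.44 (edgeR adjusted p = 0.0408) was lost on leaving out any 1 of the 5 lines, with edgeR adjusted p from 0.0609 to 0.158, and turned to -0.64 against E13.5 lines. Rnf43 was low, at 0.837 in KH2, 1.63 in MSI1 and 1.46 in MSI2, at 0.440 in C1 and 0.356 in C4, and at 0.322 in KH2 and 0.735 in MSI1 at E13.5. In both comparisons it reached the filter through the tet-inducible lines of E12.5 only.

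Of the secreted Frizzled-related proteins, which bind Wnt ligands outside the cell, Sfrp2 and Sfrp4 were lower in the floxed lines. Sfrp2 was at 10.8 in C1 and 7.51 in C4 against 18.0 in KH2, 19.2 in MSI1 and 22.7 in MSI2 (log2 -1.13 ± 0.21 SE, edgeR adjusted p = 0.00353), and Sfrp4 at 3.55 in C1 and 1.86 in C4 against 6.45 in KH2, 9.78 in MSI1 and 8.40 in MSI2 (log2 -1.61 ± 0.35 SE, edgeR adjusted p = 0.00672). Sfrp1 did not pass that test (log2 0.41 ± 0.25 SE, edgeR adjusted p = 0.187) but fell with stage, from 7.79 to 4.02 in KH2 and from 11.5 to 4.39 in MSI1 (log2 -1.20 ± 0.25 SE, edgeR adjusted p = 0.00247). Sfrp4 fell with it (log2 -1.19 ± 0.26 SE, edgeR adjusted p = 0.00308), while Sfrp2 rose (log2 0.48 ± 0.16 SE, edgeR adjusted p = 0.0294). Wif1, Dkk3 and Sfrp5 had mean levels of at most 0.534.

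Of the feedback genes, Nkd1 and Axin2 were lower in the floxed lines. Nkd1, an inducible inhibitor that binds Dishevelled, was at 77.0 in KH2, 129 in MSI1 and 264 in MSI2, and MSI2 cells stood above the rest, while C1 and C4 were at 9.79 and 7.89 (17.8-fold lower, log2 -4.15 ± 0.56 SE, edgeR adjusted p = 0.000848). Its paralogue Nkd2 ran the other way, at 3.72 in C1 and 2.31 in C4 against at most 0.385 in the tet-inducible lines, a gap read as a description only. Axin2, the feedback scaffold of the destruction complex, was 3.16-fold lower in the floxed lines, at 8.61 in C1 and 8.21 in C4 against 26.4 in KH2, 24.2 in MSI1 and 29.1 in MSI2 (log2 -1.66 ± 0.12 SE, edgeR adjusted p = 6.74e-05). The footprints of Axin2 were lower by a similar amount without passing the threshold (log2 -1.36 ± 0.50 SE, edgeR adjusted p = 0.0596), and Nkd1 and Axin2 did not change with stage past the threshold (log2 -0.25 ± 0.12 SE, edgeR adjusted p = 0.108 and log2 0.21 ± 0.12 SE, edgeR adjusted p = 0.164). Lef1 was at 0.287 to 2.25 in the 5 untreated lines and under the expression filter, as was Dkk1, which had no read in any of them.

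The letters of the TCF/LEF motif (CTTTG and then A or T at each of the next 2 bases, on either strand) were searched in the promoter windows of RefSeq (build GRCm38.p6), which span 250 bases before to 50 after each start. Of 43 pathway genes with a window, 7 held a match, or 16.3%, against 18.9% of all 27025 genes. Axin2, Nkd1 and Znrf3 were not among the 7, and sites outside these windows were not searched. All 8 matches are shown, with the motif in capitals, and the genes that hold them include Wnt3 and Fzd7, lower in the floxed lines, Wnt5b, which passed no test, and Dkk1, with no read in the untreated lines.
Dkk1, chr19:30549576-30549605, minus strand: tcccatcccggCTTTGTTgtcttccctgag
Dkk1, chr19:30549595-30549624, minus strand: tcctcccaaagCTTTGAAatcccatcccgg
Fzd7, chr1:59482006-59482035, plus strand: tccacagagaaAACAAAGcgcgctattgga
Lef1, chr3:131156136-131156165, plus strand: caacctcagaaTACAAAGtaggattgcatt
Tcf7l2, chr19:55895296-55895325, plus strand: aaaatatcaggCTTTGTTcttttgattgaa
Wnt11, chr7:98835050-98835079, plus strand: gacgtgggcggATCAAAGcgacggtccgcg
Wnt3, chr11:103774182-103774211, plus strand: cctcaagtggaCTTTGTTccaactattggg
Wnt5b, chr6:119449439-119449468, minus strand: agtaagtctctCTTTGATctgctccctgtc

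Of the destruction complex, Gsk3b was lower and Axin1 higher in the floxed lines. β-catenin was at 1059 in KH2, 980.1 in MSI1 and 951 in MSI2, and at 949 in C1 and 908 in C4, with no call in any mRNA comparison. The footprints of β-catenin, counted over 133 nt of coding exon, were lower in the floxed lines (log2 -0.70 ± 0.24 SE, edgeR adjusted p = 0.0473). Gsk3b, the kinase that marks β-catenin for removal, was lower in the floxed lines, at 109 in C1 and 116 in C4 against 189.6 in KH2, 228 in MSI1 and 212 in MSI2 (log2 -0.91 ± 0.11 SE, edgeR adjusted p = 0.000469; footprints log2 -1.06 ± 0.25 SE, edgeR adjusted p = 0.0074). Axin1, the constitutive scaffold, was higher there, at 57.4 in C1 and 57.9 in C4 against 42.8 in KH2, 38.7 in MSI1 and 40.3 in MSI2 (log2 0.50 ± 0.09 SE, edgeR adjusted p = 0.00242), and higher at E13.5 (log2 0.45 ± 0.11 SE, edgeR adjusted p = 0.00613), as was Apc (log2 0.48 ± 0.11 SE, edgeR adjusted p = 0.00503). 

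The Dishevelled genes relay the signal from Frizzled receptors, and Dvl1 and Dvl3 were higher in the floxed lines and at E13.5. Dvl1 was at 85.8 in C1 and 92.3 in C4 against 50.7 in KH2, 43.5 in MSI1 and 42.0 in MSI2 (log2 0.97 ± 0.11 SE, edgeR adjusted p = 0.000402) and rose to 81.1 and 82.5 at E13.5 (log2 0.79 ± 0.12 SE, edgeR adjusted p = 0.000303). Dvl3 was at 150.0 in C1 and 149 in C4 against 96.5 in KH2, 99.95 in MSI1 and 85.0 in MSI2 (log2 0.66 ± 0.10 SE, edgeR adjusted p = 0.00107), and at 145 in KH2 and 143 in MSI1 at E13.5 (log2 0.54 ± 0.10 SE, edgeR adjusted p = 0.00175). Dvl2 was lower in the floxed lines (log2 -0.47 ± 0.12 SE, edgeR adjusted p = 0.0132, edgeR adjusted p = 0.122 without C4). Footprints gave differences of the other sign for Dvl1 and Dvl3, neither past the threshold (log2 -0.33 ± 0.59 SE, edgeR adjusted p = 0.711 and log2 -0.19 ± 0.25 SE, edgeR adjusted p = 0.592). Against the tet-inducible lines of E13.5, the mRNA of Dvl1, Dvl3 and Axin1 differed by log2 0.11, 0.04 and 0.03, with no call.

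Among the TCF/LEF factors, Tcf7l1, the repressor of the family, was at 67.1 in KH2, 63.6 in MSI1 and 62.2 in MSI2, and at 85.1 in C1 and 67.7 in C4, with no call between line sets or stages. Tcf7 was at 13.7 in C1 and 9.91 in C4 against 1.09 in KH2, 1.92 in MSI1 and 2.53 in MSI2. It reached the filter through the floxed lines only, so these levels are a description. MSI2 was the only tet-inducible line in which it reached 1 CPM. Tcf7l2, measured by footprints only, had 14 to 95 a library, with 7.92 normalised footprint CPM in untreated C1 and 19.8 in C4 against 29.4 in KH2 and 33.2 in MSI1 (log2 -1.36 ± 0.44 SE, edgeR adjusted p = 0.0358).

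A list of 68 further Wnt pathway genes (receptors of planar polarity, kinases, co-activators and co-repressors, extracellular regulators and target genes) was tested in the same fits. Of 56 tested, 40 were called between line sets (19 higher and 21 lower in the floxed lines), and of 54 tested, 30 between stages (14 higher and 16 lower at E13.5), beside 66.3% and 50.8% of all genes. Whether each of these genes reached the filter on low counts within both groups was not checked. Apcdd1, a Wnt-induced inhibitor, was lower in the floxed lines by log2 -2.99 (edgeR adjusted p = 3.68e-05), and Wls, which carries Wnt proteins to the surface, by -1.98 (edgeR adjusted p = 0.00012). Ror2, a receptor of WNT5A, was higher by 2.19 (edgeR adjusted p = 0.000313), and the proliferation genes Ccnd1 and Myc, regulated by TCF among many other inputs, by 3.14 and 3.27 (edgeR adjusted p = 5.49e-05 and 3.62e-05). Of 55 tested for Dox, edgeR and DESeq2 called 0 and 8 had an unadjusted p under 0.05, and for Musashi induction beyond Dox both called 0 of 55 and 1 had such a p. For Msi1 induction edgeR called 4 of 54 (DESeq2 0) and for 4-OHT 2 of 56 (DESeq2 3).

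With Dox, no Wnt pathway gene was called. Across KH2, MSI1 and MSI2 of E12.5, with line as a block, 0 of 35 were called by edgeR and 0 by DESeq2, where edgeR called 0.451% of all 11969 genes (0.159% higher and 0.292% lower), and 9 of the 35 had an unadjusted p under 0.05, as did 1653 of all 11969 genes. The lowest adjusted p belonged to Nkd1, at 77.0 and 70.1 without and with Dox in KH2, 129 and 96.8 in MSI1 and 264 and 206 in MSI2 (log2 -0.30 ± 0.08 SE, edgeR adjusted p = 0.119). Without the transgene-free KH2 pair the count was 5 of 35, against 4.31% of all 11838 genes: Nkd1, Sfrp1, Gsk3b and Lrp5 were lower and Wnt7b higher with Dox (log2 -0.38, -0.87, -0.33, -0.32 and 0.52, edgeR adjusted p from 0.0175 to 0.0362). These 5 were named after their values were seen. The change in the 3 pairs with a transgene beyond that in KH2 was called for 0 of 35, 0 by DESeq2 and 0 of all 12167 genes, a background of 0%, with 3 of the 35 and 584 of all genes at an unadjusted p under 0.05.

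Sfrp1, an inhibitor that binds Wnt ligands, fell with Msi1 induction at both stages. Its level went from 11.5 to 5.03 with Dox in MSI1 cells of E12.5 and from 4.39 to 2.21 at E13.5 (log2 -1.08 ± 0.28 SE, edgeR adjusted p = 0.00735). That p-value rests on a spread pooled over all genes, not on the spread of Sfrp1 itself. Of 35 Wnt pathway genes tested, 1 was called, where 3.6% of all 11938 genes were called (1.78% higher and 1.82% lower). KH2 cells gave 7.79 and 7.73 without and with Dox, and MSI2 cells 13.4 and 8.50. The difference beyond the KH2 pair did not pass the threshold (log2 -0.90 ± 0.37 SE, edgeR adjusted p = 0.971), DESeq2 did not call the change (adjusted p = 0.261), and the call was lost without stage as a block (edgeR adjusted p = 1). Sfrp4 was lower by log2 -0.82 and Fzd5 higher by 0.55, neither past the threshold (edgeR adjusted p = 0.0856 and 0.0775).

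Single pairs of libraries have no repeat and no test, and are given in the deposited RPKM, which within a library is proportional to the level above and lower in value. No Wnt pathway gene whose mean RPKM reached 1 changed 2-fold with Dox after 0.5 was added to each RPKM. The share of all such genes that did was 0.0984% in KH2, 0.354% in MSI1 and 0.387% in MSI2 of E12.5 and 0.916% in MSI1 of E13.5. With 4-OHT, 0 of these genes changed 2-fold in C1 (0.11% of all genes) and 2 in C4 (1.14%), Lgr5 and Wnt2. Without that addition Sfrp1 in MSI1 of E12.5 (1.76 to 0.776 RPKM, log2 -1.18, 95% counting interval -1.70 to -0.65) and Sfrp2 in C4 (log2 1.01, 95% counting interval 0.81 to 1.22) also passed. At E13.5 the largest rise in MSI1 was that of Fzd5 (2.46 to 4.73 RPKM, log2 0.94, 95% counting interval 0.82 to 1.06), followed by Wnt4 (log2 0.76, 95% counting interval 0.63 to 0.89), Tcf7 (log2 0.67, 95% counting interval 0.26 to 1.08) and Wnt5a (log2 0.59, 95% counting interval 0.54 to 0.65). In MSI2 it was that of Wnt7b (4.86 to 7.93 RPKM, log2 0.71, 95% counting interval 0.53 to 0.89).

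**Figure D4:**
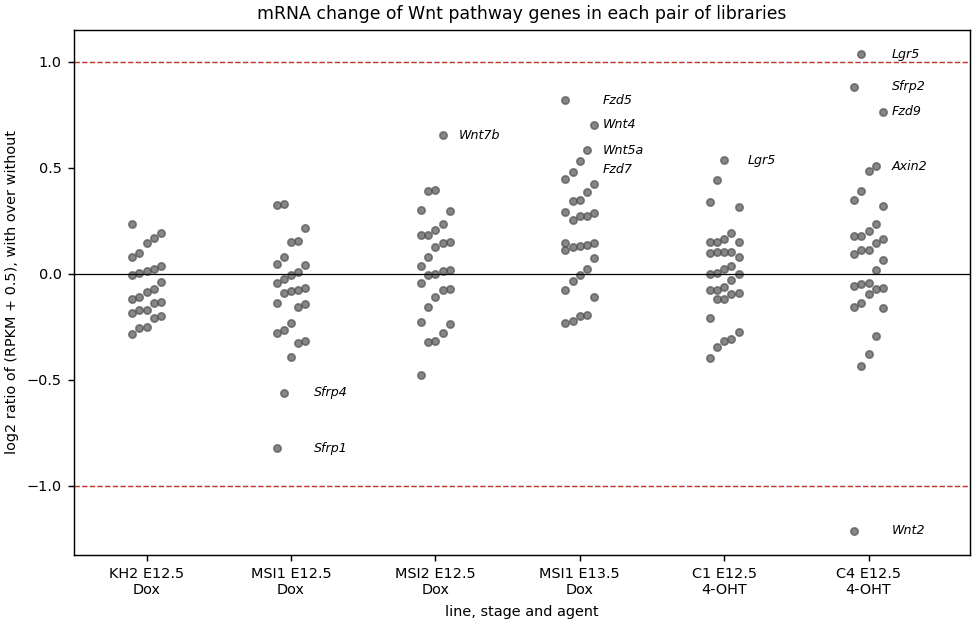
log2 ratio of RPKM plus 0.5, treated over untreated, for the Wnt pathway genes whose mean RPKM reached 1 in each pair of libraries, 1 point per gene, with names beyond 0.5 and dashed lines at 2-fold. The 2 points of Lgr5 and Wnt2 in C4 lie beyond the dashed lines, at 1.04 and -1.21.

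4-OHT changed 4 of 38 Wnt pathway genes across C1 and C4, with line as a block, where 5.5% of all 11626 genes were called (3.14% higher and 2.36% lower). Axin2 and Lgr5 rose, and Wnt7b and Tcf7l1 fell. The other feedback genes tested were not called: Nkd1 changed by log2 -0.00023, Znrf3 by 0.16, Nkd2 by 0.14 and Tcf7 by -0.47. Axin2 went from 8.61 to 12.3 in C1 and from 8.21 to 11.8 in C4 (log2 0.51 ± 0.10 SE, edgeR adjusted p = 0.0212). Lgr5 went from 2.28 to 4.00 and from 2.53 to 6.53 (log2 1.09 ± 0.25 SE, edgeR adjusted p = 0.0406). Wnt7b went from 132 to 101 and from 87.9 to 64.3 (log2 -0.43 ± 0.07 SE, edgeR adjusted p = 0.0108), and Tcf7l1 from 85.1 to 70.4 and from 67.7 to 52.6 (log2 -0.32 ± 0.07 SE, edgeR adjusted p = 0.0293). All 4 genes moved in the same direction in C1, which lacks Cre, as in C4, and without the block 0 of 38 passed the threshold (edgeR adjusted p from 0.275 to 0.718).

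The change in C4 less that in C1, which bears on the deletion beyond the drug, was at least 2-fold for 1 of 39 Wnt pathway genes with more than 20 reads in each library, against 1.97% of all 11993 genes. That gene was Wnt2. The comparison rests on the library labelled C4 with 4-OHT, whose Msi1 reads did not fall, and untreated C4 already had less Msi1 than untreated C1 (29.5 against 82.2). The level of Wnt2 was 21.7 without and 19.9 with 4-OHT in C1, and 22.5 without and 8.45 with it in C4, a difference of log2 -1.22 (95% counting interval -1.43 to -1.01). Its normalised footprint CPM was 2.90 without and 3.62 with 4-OHT in C1, on 26 and 11 footprints, and 5.44 and 2.32 in C4, on 14 and 5. Fzd9 and Sfrp2 differed the other way, by 0.86 (0.78 to 0.94) and 0.83 (0.55 to 1.10), as Fzd9 went from 56.4 to 53.7 in C1 and from 53.3 to 87.5 in C4. For β-catenin the difference was 0.09 (0.07 to 0.11), near the median of 0.07 over all 11993 genes. The interval lacked 0 for 51.3% of the 39 Wnt pathway genes and for 49.6% of all genes. These intervals cover counting error only, since each condition had 1 library.

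Translation efficiency (TE) is the Ribo-Seq RPKM over the RNA-Seq RPKM of the same cells, and relative TE is its log2 less the median gene of the library. In the 4 untreated lines with Ribo-Seq, 20 Wnt pathway genes had more than 5 reads in all libraries, and 15 of them lay below 0 with a median of -0.38. By limma, 7 of the 20 were called, against 33.7% of all 7156 genes: 6 below the median (16.8% of all genes) and 1 above (17%). Dvl1 was lowest, at -1.99 in KH2, -1.02 in MSI1, -3.86 in C1 and -1.91 in C4 (mean -2.20 ± 0.40 SE, limma adjusted p = 0.00343), on 12, 56, 53 and 60 footprints, in the lowest 0.783% of all genes. Fzd9 was at -0.91 in KH2, -1.03 in MSI1, -1.92 in C1 and -1.27 in C4 (mean -1.28 ± 0.21 SE, limma adjusted p = 0.00193), and Lrp5 at -0.66 in KH2, -0.87 in MSI1, -1.47 in C1 and -1.33 in C4 (mean -1.08 ± 0.18 SE, limma adjusted p = 0.00219). Each of these was below the median in all 4 lines.

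Wnt7b (mean -1.12 ± 0.30 SE, limma adjusted p = 0.0209), Fzd1 (mean -0.99 ± 0.32 SE, limma adjusted p = 0.0403) and Dvl3 (mean -0.65 ± 0.20 SE, limma adjusted p = 0.0375) were also below the median. Without C1 the adjusted p of these 3 was 0.075, 0.149 and 0.13, and without C4 it was 0.101, 0.165 and 0.145 (limma). In C1 and C4 their values were lower than in KH2 and MSI1, as for Fzd1 at -0.58 in KH2, 0.03 in MSI1, -1.84 in C1 and -1.57 in C4. β-catenin was above the median, at 0.91 in KH2, 1.03 in MSI1, 0.57 in C1 and 0.16 in C4 (mean 0.67 ± 0.18 SE, limma adjusted p = 0.0211), though its footprints were counted over 133 nt of coding exon and its mRNA over 1813 nt, and its adjusted p was 0.0679 without KH2 and 0.0996 without MSI1 (limma). Lgr5, at 0.96, and Wnt5a, at 0.02, did not pass the threshold (limma adjusted p = 0.0515 and 0.947). The mRNA of Lgr5 was counted over 598 nt and its footprints over 2436 nt of coding exon, so its TE compares unlike parts of the gene. Lrp6 split by line set, at 0.72 in KH2, 0.88 in MSI1, -0.59 in C1 and -0.71 in C4.

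**Figure D5:**
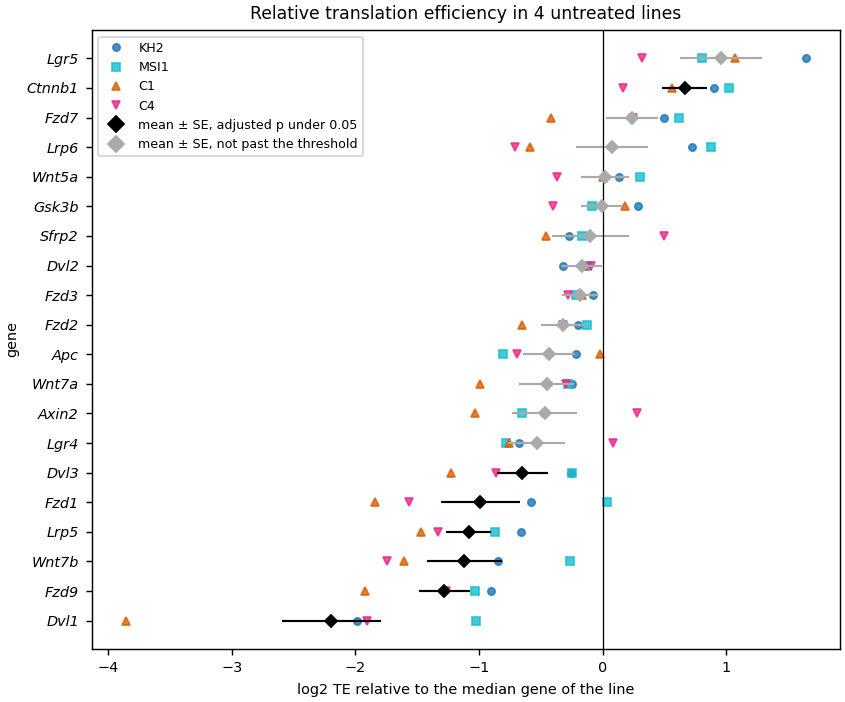
log2 translation efficiency relative to the median gene of each line for the 20 Wnt pathway genes measured in all libraries, with coloured symbols for the 4 untreated lines and diamonds for the mean ± SE (black where limma's adjusted p was under 0.05). The diamonds run from -2.20 for Dvl1 to 0.96 for Lgr5, and 15 of 20 are left of 0. For Lgr5, mRNA was counted over 598 nt and footprints over 2436 nt.

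Musashi proteins bind RNA at UAG, so UAG was counted in every gene over its longest annotated 3′ UTR (mm9, GENCODE). The 63 Wnt pathway genes had a median of 11.4 UAG per kb (interquartile range 8.06 to 13.9), and all 18458 genes with a 3′ UTR of at least 100 nt 11.2 (7.94 to 14.2). The density was 14.0 per kb in Sfrp1 (44 in 3144 nt), 13.9 in Dvl1 (13 in 937 nt), 12.8 in Fzd9 (4 in 313 nt), 4.62 in Wnt7b (9 in 1950 nt) and 7.18 in Ctnnb1 (14 in 1949 nt). It was 11.05 in Fzd1 (20 in 1810 nt), 9.76 in Dvl3 (2 in 205 nt) and 0 in Lrp5, whose 3′ UTR of 205 nt held no UAG. The densest 30 bases of the 3′ UTR are shown for Sfrp1, whose mRNA fell with Msi1, and for the 6 genes called by relative TE that hold a UAG, in the DNA letters of the genome, 5′ to 3′ on the gene's strand, with TAG in capitals.
Sfrp1, chr8:24558665-24558694, plus strand: TAGtgacctaattaacttcatgttTAGTAG
Dvl1, chr4:155233109-155233138, plus strand: atgtgaagggTAGcTAGTAGgagagacagg
Fzd9, chr5:135725091-135725120, minus strand: aacaTAGgcTAGgctgtgagttatggttgc
Wnt7b, chr15:85367692-85367721, minus strand: caggagggtggggaTAGaggtggggagctc
Fzd1, chr5:4754508-4754537, minus strand: tccttaacaggaTAGTAGaacatacacaga
Dvl3, chr16:20532485-20532514, plus strand: cactacaaggtcacTAGgcttctgggaagg
Ctnnb1, chr9:120866235-120866264, plus strand: gcatggaggagaTAGTAGaagggtgtactg

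TE changes with treatment were called for 2 Wnt pathway genes, both in C1. With each library's median change taken out, a call needed a 3-fold TE change with an mRNA change under 1.5-fold and more than 5 reads. Of 17 Wnt pathway genes 0 were called in KH2 (1.15% of all genes), and of 19, 0 in MSI1 (1.13%), where their TE changes with Msi1 induction ran from -0.85 to 0.51. In C1, 2 of 28 were called (2.31% of all genes), and in C4 0 of 21 (2.26%). Counting intervals without 0, whatever the size of the change, were found for 3 of 17 Wnt pathway genes in KH2 (13.2% of all genes), 0 of 19 in MSI1 (14.3%), 12 of 29 in C1 (36.2%) and 4 of 25 in C4 (29.0%). The calls in C1 were Znrf3, with footprints counted over 201 nt of coding exon (log2 1.71, 95% counting interval 0.36 to 3.06, 8 to 10 footprints) and Sfrp4 (log2 1.70, 95% counting interval 0.34 to 3.06, 11 to 8 footprints). The C1 library with 4-OHT had a median TE change of log2 -1.46 over all genes, and both calls are relative to that shift: as deposited, the change was 0.25 for Znrf3 and 0.24 for Sfrp4, and neither gene had more than 20 footprints. In C4 the largest falls were those of Sfrp2 (log2 -1.51, 95% counting interval -2.96 to -0.06, 11 to 6 footprints), Lgr4 (log2 -1.18, 95% counting interval -1.91 to -0.45, 66 to 20 footprints) and Axin2 (log2 -1.06, 95% counting interval -1.98 to -0.14, 27 to 15 footprints), while Axin2 in C1 was at 0.69 (0.01 to 1.36). With Dox alone, Dvl1 was highest in KH2 (log2 1.39, 95% counting interval 0.42 to 2.35, 12 to 32 footprints).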

How the data were processed

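RNA-Seq covered 14 libraries and Ribo-Seq 8 libraries of mouse NSC lines. The deposited counts of reads per gene, over exons for RNA-Seq and over coding exons for Ribo-Seq, and the RPKM values beside them were made by the authors, and the submitters' notes name TopHat, Bowtie and mm9. Genes were joined by Ensembl identifier, and the technical pair was summed. The members and the gene lists were chosen with earlier results of these data known.

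Counts were tested with edgeR 4.0.16 (R 4.3.3, TMM, quasi-likelihood, a filter of 1 CPM in 2 or more libraries), with Benjamini-Hochberg adjustment over all genes tested at 0.05 and line or stage as a block where named. DESeq2 1.42.0 was the alternative. Relative TE was tested with limma 3.58.1 (trend) where a gene had more than 5 reads in every library. Levels divide the TMM-normalised counts by the deposited exon length. Counting intervals are 95% and cover counting error only, since reads carried no molecular identifiers. The fits were tested on simulated data. Genes named with values are those past a test, the highest of each role, the feedback genes Axin2, Lef1, Nkd1, Nkd2, Znrf3, Rnf43, Dkk1 and Tcf7, those with a TE call, and genes on which a result turned, which were chosen after their values were seen. Other scripts used Python 3.11.15 with numpy 2.4.6, pandas 2.3.3 and matplotlib 3.10.9. The alternatives were another normalization and test, no filter, no block, other read limits, pseudocounts and fold limits, and leaving out each library, and the closing section gives their effect.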

Additional observations from a re-analysis of the deposited data

Results flagged for a closer look

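Of 20 groups of 4 untreated lines tested by Dixon's ratio on relative TE, 2 held a line far from the others, where chance flags about 1 in 20. Lgr4 had its highest relative log2 TE in C4, at 0.0837, against -0.78 to -0.68 in KH2, MSI1 and C1. Wnt7a had its lowest in C1, at -0.99, against -0.29 to -0.25 in the other lines.

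In 4 genes the mRNA moved in opposite directions in comparisons of the same treatment, with both counting intervals without 0 and at least 1 change of log2 0.5 or more. Each rests on 1 pair of libraries, so the difference was not tested, and smaller opposite changes were seen in other genes, as in Lrp5 (-0.27 and 0.30 in MSI1 at E12.5 and E13.5) and Fzd4 (-0.23 in C1 and 0.39 in C4). The share of all genes that meet the rule for the 4 is not given, so their count is a description only. With Dox in MSI1 cells, the log2 change in RPKM at E12.5 and at E13.5, with its 95% counting interval, was -0.15 (-0.29 to -0.01) and 0.57 (0.49 to 0.65) for the receptor Fzd7. It was -0.15 (-0.26 to -0.03) and 0.59 (0.54 to 0.65) for the ligand Wnt5a. For the ligase gene Rnf43, on 57 and 11 reads at E12.5, it was -1.003 (-1.93 to -0.07) and 0.52 (0.07 to 0.98). With 4-OHT, Fzd9 changed by -0.0763 (-0.13 to -0.02) in C1 and 0.78 (0.73 to 0.84) in C4.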

How the results depend on the processing

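The 30 calls between line sets ranged from 22 to 31 when each line was left out in turn (22 without C1 and 22 without C4), and footprint counts gave 14. Counting genes that reached the filter within both groups, added after seeing the data like the footprint and E13.5 alternatives, gave 25 here and 18 for stage. In footprints the sign turned for Dvl1 (log2 -0.33 ± 0.59 SE), Dvl3 (-0.19 ± 0.25), Znrf3 (-0.29 ± 1.15) and Axin1 (-0.23 ± 1.01), each within its error and none called. Znrf3 and Axin1 had few footprints and reached the filter there through the floxed lines only. With E13.5 in place of E12.5 tet-inducible lines the sign turned for Fzd7 (0.32), Wnt7b (-0.70) and Znrf3 (-0.64). For Dox the count of 0 became 3 without the filter on low counts (Nkd1, Sfrp1 and Wnt7b) and ranged from 0 to 5 with a line left out, 5 being without KH2. For Msi1 the count of 1 became 0 with DESeq2, 0 without the block, and 2 with either technical replicate alone, adding Fzd5 or Sfrp4. For 4-OHT the count of 4 became 9 without the filter and 0 without the block. For relative TE the 7 calls became 4 with more than 20 reads required and 4 to 6 with a line left out (4 without C1 and 4 without C4). TE change calls at 2-fold were 1 in KH2 and 2 in C4, and in C1 they were 0 with more than 20 reads and 11 when the median was not taken out. With 0.5 added to RPKM, the 1 gene (Sfrp1) changed 2-fold in MSI1 of E12.5 became 0. The cause of these changes was not tested. Of the other values computed for whole comparisons under an alternative, 63 stayed within 1.5 times the main count or within its error. For single genes, 445 values kept their direction and side of the threshold and 56 kept the direction without passing it.

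The fits with line or stage as a block pair the treated and untreated library of a line or stage, and the labels number no replicates across groups. With 1 library per condition and few footprints (657288 in the shallowest library), changes within a line have counting error only, and a missing call does not show that a gene did not change.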

Other observations

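Among the further Wnt pathway genes, a few chosen after their values were seen are described here. Wls, the carrier of Wnt proteins to the cell surface, was at 343 in KH2 and 359 in MSI1 at E12.5 and at 123 and 89.9 at E13.5 (log2 -1.76 ± 0.14 SE, edgeR adjusted p = 3.88e-06). Porcn, which attaches the lipid to Wnt proteins, was at 59.0 and 70.4 and then at 29.9 and 31.5 (log2 -1.09 ± 0.16 SE, edgeR adjusted p = 0.000264), and in C1 and C4 at 27.7 and 27.2 (log2 -1.24 ± 0.13 SE, edgeR adjusted p = 0.000284). The cyclin gene Ccnd1 was at 131 and 87.7 at E12.5 and at 657 and 503 at E13.5 (log2 2.40 ± 0.11 SE, edgeR adjusted p = 1.04e-07). Notum, a secreted enzyme that inactivates Wnt proteins, was higher in the floxed lines (log2 2.86 ± 0.58 SE). Whether it reached the filter on low counts within both sets of lines was not checked, so the value is a description.

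Msi1 induction at both stages was called for 4 of 54 of these genes, against the 3.6% of all genes given above, and DESeq2 called 0. Ror1, a WNT5A receptor, went from 2.20 to 1.14 at E12.5 and from 1.56 to 0.520 at E13.5 (log2 -1.33 ± 0.31 SE, edgeR adjusted p = 0.00212). Apc2 (log2 0.52 ± 0.16 SE, edgeR adjusted p = 0.0284), Dact3 (log2 0.53 ± 0.16 SE, edgeR adjusted p = 0.0285) and Prickle2 (log2 0.81 ± 0.18 SE, edgeR adjusted p = 0.000864) rose. With 4-OHT, Celsr1 fell (log2 -0.33 ± 0.06 SE, edgeR adjusted p = 0.0181) and Daam1, which links Dishevelled to the actin cytoskeleton, rose (log2 0.31 ± 0.06 SE, edgeR adjusted p = 0.0267).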
